A study of Mus musculus with 29 samples.

Results

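H3K9ac regions inside gene bodies were defined as stretches of the mouse genome that carried a called peak of histone H3 acetylated at lysine 9, lay wholly within a protein-coding gene and stayed more than 2 kb from every protein-coding gene end. Overlapping peaks of all 15 H3K9ac libraries were merged into 217697 intervals (mm10), and an interval was kept when at least 3 libraries had a peak in it. Of the 56482 intervals kept, 22109 (39.1%) were gene-body regions, 20278 (35.9%) reached within 2 kb of a gene end and 14095 (24.95%) lay outside protein-coding genes. Among the gene-body regions, 211 lay inside more than 1 gene.

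The material was embryonic mouse cortex at E16.5, treated with vehicle or with TSA, an inhibitor of histone deacetylases. Per the series' design text, nuclei were sorted by flow cytometry into Tbr2-positive and Tbr2-negative fractions. H3K9ac was profiled in 3 Tbr2-positive vehicle, 4 Tbr2-positive TSA, 4 Tbr2-negative vehicle and 4 Tbr2-negative TSA libraries, and RNA in 3 vehicle and 2 TSA libraries per fraction. Strain, sex, and the dose and duration of TSA are not recorded in the labels or the design text, nor is it stated that libraries of a group come from separate animals, so p-values measure the spread between these libraries, which may be technical. The labels describe RNA extraction from whole tissue while the series describes sorted nuclei, so the compartment behind the RNA is uncertain.

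Acetylation of H3 lysine 9 marks active chromatin. It is densest around transcription start sites, and inside a gene it also occurs at alternative start sites and at enhancers within introns. Histone acetyltransferases add the mark and deacetylases remove it. Tbr2, the T-box factor encoded by Eomes, is expressed by the basal progenitors of the cortex, which divide away from the ventricle and give rise to projection neurons, while the Tbr2-negative fraction holds radial glia, neurons and other cells.

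The sort was checked in the RNA. Eomes (ENSMUSG00000032446) stood at 410, 371 and 548 CPM (counts scaled to the size of the library) in the Tbr2-positive vehicle libraries and at 22, 13.9 and 18.2 CPM in the Tbr2-negative ones, with no overlap. All 19 genes of a basal progenitor list were higher in the positive fraction (edgeR, adjusted p under 0.05), and their summed level was 5248 to 7402 CPM against 1200 to 1298 CPM. RNA of genes of other cell types was also compared between the fractions. Interneuron genes summed to 457 to 660 CPM in positive and 1213 to 1510 CPM in negative vehicle libraries and oligodendrocyte precursor genes to 6.83 to 13.6 and 40.8 to 66.3 CPM, with no overlap in either list. Microglial genes summed to 23.6 to 35.2 and 34.98 to 67.3 CPM, ranges that overlapped, and 3 of 11 were lower in positive nuclei (edgeR). These libraries are bulk fractions, in which fewer cells of a type and less acetylation or RNA per cell cannot be told apart. How far cell makeup accounts for the differences between fractions was not tested.

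Some gene-body regions held an annotated internal transcription start, and the bases just upstream of 6 such starts are given here because the regions around them are among those described below by their presence or width. Each line is the 250 bases upstream of a RefSeq start (GRCm38.p6, coding strand of the transcript, 5′ to 3′) in lower case, with CG dinucleotides in capitals. The region in Mef2c, a neuronal MADS-box factor, was narrower in Tbr2-positive nuclei and holds a start with the window chr13:83523406-83523655 (plus strand). The region in Celf2, an RNA-binding splicing regulator, was also narrower there (chr2:6872036-6872285, minus strand). Wider in Tbr2-positive nuclei were the regions in Lhx2, a LIM-homeodomain factor of cortical progenitors (chr2:38351058-38351307, plus strand), and in Trim2, a ubiquitin ligase (chr3:84259780-84260029, minus strand). A region of Gabra5, a GABA-A receptor subunit, had peaks in every Tbr2-negative and in no Tbr2-positive library (chr7:57510060-57510309, minus strand). The region in Sox5, a factor of deep-layer neurons, holds the start of the noncoding gene Gm38531 (chr6:144210860-144211109, plus strand).
Mef2c: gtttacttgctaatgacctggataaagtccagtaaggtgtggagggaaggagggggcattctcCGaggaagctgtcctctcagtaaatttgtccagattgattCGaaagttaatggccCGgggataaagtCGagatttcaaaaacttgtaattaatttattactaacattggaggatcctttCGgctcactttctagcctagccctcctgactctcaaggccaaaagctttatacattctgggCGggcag
Celf2: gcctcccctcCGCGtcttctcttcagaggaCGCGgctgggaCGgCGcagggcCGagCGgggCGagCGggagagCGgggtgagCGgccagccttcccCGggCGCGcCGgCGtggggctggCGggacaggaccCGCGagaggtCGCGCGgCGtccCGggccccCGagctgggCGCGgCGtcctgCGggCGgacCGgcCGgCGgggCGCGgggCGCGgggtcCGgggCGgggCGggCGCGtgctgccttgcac
Lhx2: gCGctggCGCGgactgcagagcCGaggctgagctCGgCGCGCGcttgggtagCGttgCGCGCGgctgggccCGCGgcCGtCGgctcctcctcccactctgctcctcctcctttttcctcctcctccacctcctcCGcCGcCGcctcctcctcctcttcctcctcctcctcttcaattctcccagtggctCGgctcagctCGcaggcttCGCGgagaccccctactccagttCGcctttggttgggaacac
Trim2: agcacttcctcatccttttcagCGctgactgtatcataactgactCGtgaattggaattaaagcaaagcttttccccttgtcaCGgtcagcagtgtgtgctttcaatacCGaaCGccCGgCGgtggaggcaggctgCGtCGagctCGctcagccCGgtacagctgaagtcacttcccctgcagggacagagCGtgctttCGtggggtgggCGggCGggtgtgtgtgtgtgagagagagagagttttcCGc
Gabra5: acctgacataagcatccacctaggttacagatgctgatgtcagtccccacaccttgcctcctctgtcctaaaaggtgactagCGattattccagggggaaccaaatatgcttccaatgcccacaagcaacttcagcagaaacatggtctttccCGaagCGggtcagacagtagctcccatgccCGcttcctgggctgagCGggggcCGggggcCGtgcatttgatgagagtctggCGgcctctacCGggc
Gm38531: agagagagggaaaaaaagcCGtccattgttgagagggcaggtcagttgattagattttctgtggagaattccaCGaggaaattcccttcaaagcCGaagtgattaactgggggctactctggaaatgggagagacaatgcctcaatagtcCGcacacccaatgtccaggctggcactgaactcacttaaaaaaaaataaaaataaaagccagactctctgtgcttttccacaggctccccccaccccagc
The 6 windows covered a wide range of base composition. Celf2 had a GC content of 82.8% and 43 CG dinucleotides, Lhx2 68.4% and 24, Trim2 56.4% and 16, and Gabra5 56.4% and 9. Mef2c had 44.8% and 6, and Gm38531 47.2% and 4, close to the median of 6 CG dinucleotides over all 32851 start windows of the RefSeq table. The E-box CANNTG, the core bound by basic helix-loop-helix factors such as the neurogenins and Tcf4, was found once in Trim2, once in Gm38531 and 2 times in Gabra5, and not in the other windows. The T-box sequence TCACACCT, searched on both strands and not overlapping CANNTG in its letters, was in none of the 6.

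Most gene-body regions were short and seen in few libraries. Their merged length had a median of 515 bp (quartiles 376 and 783 bp, longest 16792 bp), against 1186.5 bp for the gene-end regions and 530 bp outside genes. A gene-body region had a peak in a median of 5 of the 15 libraries, against 15 for gene-end regions. Peaks in all 15 libraries were present in 2312 gene-body regions (10.5%), in 12778 gene-end regions (63.0%) and in 1919 regions outside genes (13.6%). The 2312 recurrent gene-body regions had a median merged length of 1492.5 bp. At the threshold of recurrence, 6793 regions had peaks in just 3 libraries (median 360 bp), while 16776 gene-body intervals with peaks in 2 libraries stayed outside (271 bp). At the distance threshold, 1064 regions lay up to 500 bp beyond the 2 kb limit (median 524.5 bp) and 1165 intervals up to 500 bp short of it were left out (538 bp), so length and recurrence did not step there.

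**Figure D1:**
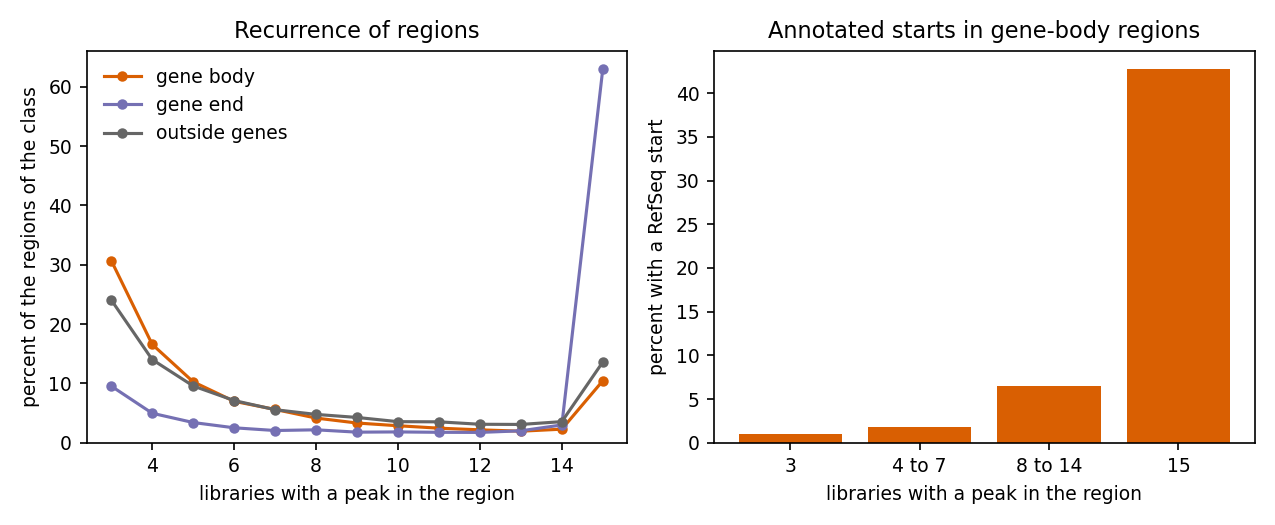
Left, percent of regions (vertical axis) by the number of libraries with a peak (horizontal axis, 3 to 15) for gene-body, gene-end and other regions. Right, percent of gene-body regions holding a RefSeq start by the number of libraries. Gene-body regions pile up at 3 libraries while 63.0% of gene-end regions are at 15, and starts go from 0.997% of regions in 3 libraries to 42.7% of those in 15.

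Internal starts were more frequent in recurrent regions. Of 21526 gene-body regions on the chromosomes covered by the RefSeq start table, 1438 (6.68%) overlapped the 250 bases upstream of at least 1 annotated start. Such regions are counted here as holding a start, though the start itself may lie just outside. In 1215 of these it was a start of the host gene, and in 317 a start of a long noncoding RNA. Main and alternative starts of a host gene were not told apart. The share with a start was 0.997% among regions seen in 3 libraries, 1.79% at 4 to 7, 6.50% at 8 to 14 and 42.7% (949 of 2222) at 15. Regions with a start had a median length of 1379.5 bp and those without one 498 bp. The 250-base windows upstream of the 1807 starts in gene-body regions had a median GC content of 58% and 11 CG dinucleotides, against 52.4% and 6 over all windows. For the 1265 starts in regions of all 15 libraries these medians were 60.4% and 14. CANNTG was in 62.5% of the 1807 windows and in 66.2% of all windows, and TCACACCT in 0.609% and 1.12%.

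Along the host gene, the regions were spread with a tilt to the 5′ side. Of the 17423 regions in genes with a known strand, 26.4%, 27.6%, 25.04% and 21.0% had their centre in the first to the last of 4 equal parts of the gene. Among those in all 15 libraries the shares were 32.6%, 31.1%, 22.9% and 13.4%. The median distance to the 5′ end of the gene was 26.8 kb.

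The 22109 regions lay in 7284 host genes, 41.2% of the 17675 protein-coding genes longer than 4 kb, the shortest that could hold one. Of the hosts, 2979 had 1 region, 2985 had 2 to 4 and 1320 had 5 or more. The 349 hosts with 10 or more regions held 5235 regions, 23.7% of all. Hosts were long genes, with a median of 43.1 kb against 16.49 kb for genes over 4 kb without a region. RNA of 6533 hosts (89.7%) passed the low-count filter, against 64.3% of the genes without a region, a share that also grows with gene length because counts are not scaled to it.

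The gene with the most regions was Gse1, a protein of a chromatin-modifying co-repressor complex, with 69. It had 39, 42 and 36 regions with a peak in the Tbr2-positive vehicle libraries, 18, 11, 18 and 13 in the Tbr2-positive TSA libraries, 39, 38, 49 and 38 in the Tbr2-negative vehicle libraries and 52, 49, 50 and 32 in the Tbr2-negative TSA libraries. Only the Tbr2-positive TSA libraries stood apart, all lying below the other 11. Nfia, a CTF/NF-I factor of glial and neuronal differentiation, had 48 regions, of which 36, 42 and 34 had a peak in the positive vehicle libraries and 24, 28, 29 and 29 in the negative vehicle libraries, with no overlap. Its RNA was 569, 506 and 882 CPM against 200, 224 and 225 CPM, a log2 fold change of 1.60 ± 0.19 (SE; edgeR adjusted p = 0.0001). Also among the 10 hosts with the most regions were Ttc28 (52), the zinc-finger factor Prdm16 (41), Macrod1 (38), Auts2 (34), the helix-loop-helix factor Tcf4 (33), the cell-adhesion gene Dscaml1 (32) and Zmiz1 (32). Prdm16 was also higher in positive nuclei by RNA, by a log2 fold change of 1.04 ± 0.25 (edgeR adjusted p = 0.0089). Gse1 (0.40 ± 0.22, adjusted p = 0.23) and Auts2 (0.35 ± 0.16, adjusted p = 0.14) did not pass.

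**Figure D2:**
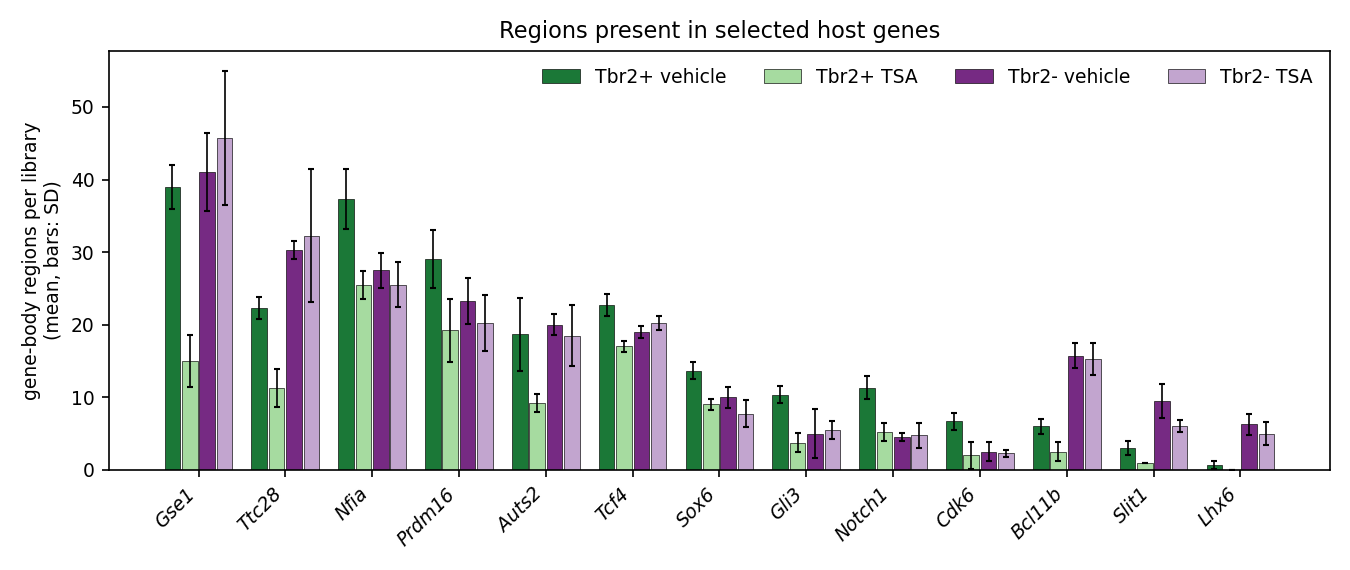
Number of gene-body H3K9ac regions with a peak per library (vertical axis) in 13 host genes, as the mean of each group with the SD as error bar. In Bcl11b and Lhx6 the Tbr2-negative groups lie above both Tbr2-positive groups, and in Notch1 and Cdk6 the Tbr2-positive vehicle group is the highest.

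Most genes of the neuronal lists were hosts. Of 30 axon guidance genes 29 were hosts, of 30 synaptic adhesion genes 27, of 27 ion channel genes 23 and of 22 neuronal cytoskeleton and RNA-processing genes 20, against 41.2% of all genes over 4 kb. These lists hold very long genes, with medians of 214, 907, 440 and 248 kb against 24.3 kb, and per 100 kb their medians were 1.64, 0.576, 0.537 and 3.35 regions. The list of broad forebrain transcription factors had 24 of 29 genes as hosts and 371 regions, the most of any list. Its genes are long too (median 206 kb), and its median was 3.37 regions per 100 kb. The highest median per 100 kb, 4.91, was that of upper-layer neuron genes. High shares were not limited to these lists: 25 of 30 chromatin regulators, 22 of 27 genes of Notch, Wnt and FGF signalling and 15 of 20 radial glia genes were hosts, against 8 of 12 deep-layer neuron and 7 of 13 interneuron genes. Of the basal progenitor list, 4 of 11 genes long enough were hosts, with 16 regions; most of its genes are short (median 8.23 kb). Hosts numbered 3 of 10 for microglia, 5 of 14 for vessels and meninges, 0 of 4 for red cells and 7 of 20 for muscle and liver.

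By fraction, the mean number of regions with a peak per vehicle library differed between lists. On average 43 regions of deep-layer neuron genes had a peak in a Tbr2-negative and 26.3 in a Tbr2-positive vehicle library. For radial glia genes the means were 36 and 50.3, for cell-cycle genes 12.5 and 22.7, for basal progenitor genes 8.25 and 12 and for axon guidance genes 91.75 and 76. Over all hosts the totals were 11970 and 11692, nearly equal. By RNA (edgeR, vehicle) 9 of 12 deep-layer genes were lower and 1 higher in positive nuclei, 16 of 20 cell-cycle genes were higher and 0 lower, 20 of 30 synaptic adhesion genes were lower and 1 higher, and 20 of 27 ion channel genes were lower and 0 higher. Radial glia genes were split, with 8 of 24 higher and 2 lower. Over all genes tested, 9.95% were higher and 11.5% lower in positive nuclei.

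Single hosts named here belong to these lists, so they are part of the list means and not separate support. Of the deep-layer means, Bcl11b alone supplied 15.75 regions in negative and 6 in positive vehicle libraries. Of the radial glia means, Notch1 supplied 4.5 and 11.3 and Gli3 5 and 10.3. Bcl11b (ENSMUSG00000048251), a factor of subcerebral projection neurons, had 20 regions, of which 6, 5 and 7 had a peak in the positive vehicle libraries, 3, 4, 1 and 2 in the positive TSA libraries, 16, 15, 18 and 14 in the negative vehicle libraries and 18, 16, 13 and 14 in the negative TSA libraries. The lowest negative library, with 13, was above the highest positive one, with 7. Its RNA was 54.2, 82.9 and 89.1 CPM in positive and 162, 207 and 250 CPM in negative vehicle libraries, a log2 fold change of -1.45 ± 0.21 (edgeR adjusted p = 0.00039). Lhx6, a factor of interneurons born outside the cortex, had 1, 0 and 1 regions with a peak in positive and 7, 7, 7 and 4 in negative vehicle libraries, and an RNA log2 fold change of -2.30 ± 0.27 (edgeR adjusted p = 7.3e-05). The interneuron list as a whole differed less, with means of 19 regions in positive and 22.5 in negative vehicle libraries. Sox6, of the same list, went the other way, with 13, 13 and 15 against 10, 11, 11 and 8 regions. Its RNA was higher in positive nuclei (1.30 ± 0.17, edgeR adjusted p = 0.00016). Slit1, a secreted axon guidance cue, had a mean of 3.0 ± 1.0 against 9.5 ± 2.4 regions (SD), and RNA that was lower by the same test (-1.72 ± 0.29, adjusted p = 0.00096).

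Hosts with more regions in the Tbr2-positive vehicle libraries included progenitor genes. The receptor gene Notch1 had 13, 11 and 10 of its 13 regions with a peak in positive and 5, 5, 4 and 4 in negative vehicle libraries, with no overlap, and 5, 7, 4 and 5 in the positive TSA libraries. Its RNA log2 fold change between fractions was 1.37 ± 0.30 (edgeR adjusted p = 0.0053). Cdk6, a kinase of the G1 phase, had 6, 8 and 6 against 4, 3, 1 and 2 regions, and its RNA was higher by 2.84 ± 0.25 (adjusted p = 1.3e-05). Gli3, a mediator of hedgehog signalling, had 11, 11 and 9 against 1, 6, 9 and 4 regions, so the groups touched, and its RNA was higher by 1.42 ± 0.21 (adjusted p = 0.00034). Not every difference in RNA had a counterpart in region number. Hdac9, a class IIa deacetylase, had 5, 4 and 4 regions in positive and 6, 6, 7 and 6 in negative vehicle libraries, while its RNA was higher in positive nuclei (2.30 ± 0.19, edgeR adjusted p = 8.4e-06). Eomes itself had 1 gene-body region, with a peak in 2 positive vehicle libraries and 1 positive TSA library and in none of the negative ones. Pax6 had 2 regions, Hdac4 6 and Nfib 19, and Sox2 and Tbr1 had none.

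The numbers of gene-body regions did not separate the fractions in the vehicle libraries. There were 12567, 10881 and 11142 regions with a peak in the Tbr2-positive and 10795, 12999, 12662 and 10648 in the Tbr2-negative libraries, 11530 ± 908 against 11776 ± 1227 (SD; difference -246, exact permutation p = 0.914, n = 3 and 4). The groups overlapped, and the sign of the difference turned when Tbr2-negative vehicle library 2 (214) or 3 (114) was left out. Regions with a peak in all libraries of 1 group and no library of the other numbered 480 for the positive (2.17% of gene-body regions; 1.73% over all regions) and 337 for the negative fraction (1.52%; 1.47%). With only the 31823 strongest peaks of each library, the number in the smallest library, they were 193 and 167 (1.5% and 2.04% over all regions). No region was called by population when presence was tested per region with treatment as a stratum (conditional exact test, Benjamini-Hochberg over 56482 regions, 0.0% called, smallest adjusted p = 0.0771). The smallest p that this design can give, 0.000408, would pass only if 462 regions shared it, and 299 of all regions did. At an unadjusted p under 0.05, 447 gene-body regions had more peaks in positive and 1893 in negative libraries (1.62% and 7.55% over all regions). With equal peak numbers these counts were 484 and 454 of 7244 (3.67% and 5.12% over all regions, 0.0% called), so the lean towards the negative fraction was not there.

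Requiring that a library cover at least 50% of a region turned this call. Among 9621 gene-body regions that met the rule under that requirement, 363 passed (exact test, smallest adjusted p = 0.0205). Of these, 19 had more presence in positive (0.197%; 0.146% over all regions) and 344 in negative nuclei (3.58%; 4.19% over all regions). The lean was not particular to gene bodies, since 13 and 879 gene-end regions passed in these directions. The test includes the TSA libraries, where the positive fraction had fewer and narrower peaks, and it was not run at equal peak numbers. Of the 17 tested hosts of the 19 regions, 10 were higher and 1 lower in positive nuclei by RNA. Of the 288 tested hosts of the 344 regions, 21 were higher and 140 lower (7.29% and 48.6%). Over all tested hosts 13.6% were higher and 17.8% lower. The requirement brings width into the call, since a wide region counts as present only in libraries where the peak is wide.

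Among the regions at the smallest p of the presence test, named without having passed it, Ptprn2, Bcl11b, Efnb2, Gabra5 and Prkag2 each had a region with a peak in all 8 Tbr2-negative and no Tbr2-positive library. That of Efnb2 lies 2012 bp from a protein-coding gene end, just beyond the 2 kb limit. The region in Bcl11b (chr12:107989629-107992524) measured 1427, 553, 1918 and 1331 bp in the negative vehicle and 1714, 1258, 1143 and 1037 bp in the negative TSA libraries. That of the receptor-type phosphatase gene Ptprn2 (chr12:117153926-117156664) was the widest of the 5, at 1759 to 2403 bp in the vehicle libraries. The Gabra5 region (chr7:57508837-57510333), whose start window is shown above, measured 1212, 1176, 1273 and 1141 bp in the vehicle libraries, and Gabra5 RNA was lower in positive nuclei (log2 fold change -1.87 ± 0.34, edgeR adjusted p = 0.0017). In the other direction, Snx24, Loxl1, Faf1 and Egfr had narrower regions with a peak in all 7 positive and no negative library. Loxl1 (chr9:58309405-58310641), a cross-linking enzyme of elastic fibres, measured 597, 513 and 757 bp in the vehicle and 148, 563, 161 and 433 bp in the TSA libraries, and its RNA was higher in positive nuclei by 3.38 ± 0.26 (edgeR adjusted p = 6.5e-06). RNA of Egfr, the receptor of epidermal growth factor, did not pass (0.13 ± 0.46, edgeR adjusted p = 0.88).

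Width carried the clearest contrast between fractions. In each library the bases covered by peaks were summed per region, put on a log2 scale and centred on the library median, and the 17009 regions with a peak in all 15 libraries were tested with limma. In vehicle, 158 of 2312 gene-body regions were wider and 171 narrower in Tbr2-positive nuclei (limma, adjusted p under 0.05), 6.83% and 7.40%, against 4.22% and 5.21% over all regions tested. Without centring the counts were 97 and 220. Leaving out Tbr2-positive vehicle library 1 lowered the total from 329 to 207. The 6 widest recurrent regions lay in Nfix, Lhx2, Tcf4 and Bcl11a, all transcription factors of the forebrain. A region in Lhx2 (chr2:38344763-38360876) covered 14725, 15261 and 15398 bp in the positive vehicle libraries and 12287, 11827, 11364 and 11776 bp in the negative ones, with no overlap (log2 difference 0.45 ± 0.05, limma adjusted p = 8.9e-06). A region in Pou2f1, an octamer-binding factor (chr1:165932461-165935070), covered 2388, 2316 and 2382 bp against 592, 437, 706 and 677 bp, the strongest widening of those named (2.09 ± 0.18, limma adjusted p = 7.1e-07). A region in Nfix (chr8:84727766-84737109), a relative of Nfia, covered 6764 ± 396 bp against 2935 ± 481 bp (1.31 ± 0.14, adjusted p = 8e-06), and a region in Tcf4 9621 ± 540 bp against 4850 ± 548 bp (1.09 ± 0.11, adjusted p = 4.4e-06).

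Other regions were narrower in Tbr2-positive nuclei. The region in Mef2c (ENSMUSG00000005583; chr13:83523132-83531481) covered 1695, 1655 and 1683 bp in the positive vehicle libraries and 5766, 6489, 6343 and 6375 bp in the negative ones, a log2 difference of -1.80 ± 0.07 (limma adjusted p = 6.3e-11). It covered 1333 to 1440 bp in the positive and 6466 to 7516 bp in the negative TSA libraries, so the fractions were apart in every library. Celf2 (chr2:6865349-6872689) covered 2727, 2773 and 3054 bp against 6131, 6173, 6266 and 6416 bp (-1.04 ± 0.07, limma adjusted p = 3.8e-08). Taok3, a kinase gene (chr5:117239771-117243551), covered 1172 ± 102 bp against 3393 ± 74.1 bp (-1.44 ± 0.10, adjusted p = 4.9e-08). Mapt, the gene of the microtubule protein tau (chr11:104231424-104235729), covered 1663 ± 108 bp against 3550 ± 156 bp (-0.9995 ± 0.08, adjusted p = 2.3e-07). The Mapt region lies 2015 bp from a protein-coding gene end, just beyond the 2 kb limit. The largest difference in bases among the named regions was in Bcl11a, a zinc-finger factor of cortical neurons (chr11:24085012-24100283), with 1352, 1577 and 1887 bp in positive and 12025, 13477, 14152 and 12698 bp in negative vehicle libraries (-2.94 ± 0.31, limma adjusted p = 8e-06). The region in Sox5 that holds the Gm38531 start (chr6:144201314-144211336) covered 5229 ± 65.8 bp against 9514 ± 199 bp (-0.77 ± 0.07, adjusted p = 9.5e-07).

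**Figure D3:**
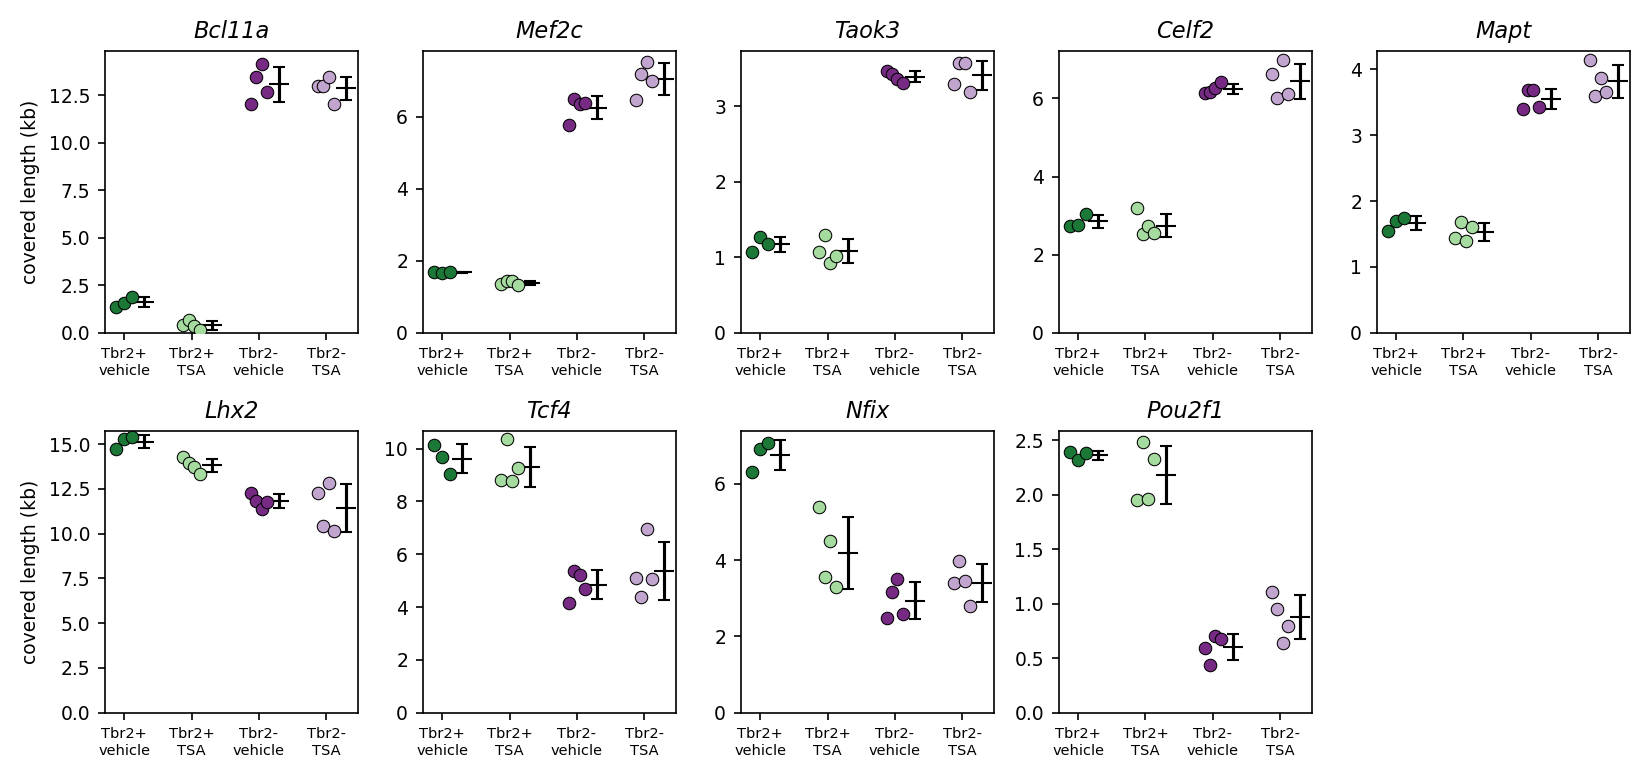
Bases covered by peaks (kb, vertical axis) in 9 gene-body regions, with 1 point per library, the group mean as a bar and the SD as error bar. The region in Bcl11a covers 12025 to 14152 bp in the Tbr2-negative vehicle libraries and 1352 to 1887 bp in the Tbr2-positive ones, and the region in Pou2f1 shows the opposite order.

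Host RNA moved in the direction of width. Among tested hosts of the regions that were wider in Tbr2-positive nuclei (143 genes), RNA was higher in positive nuclei for 69 and lower for 14 (48.3% and 9.79%). Among those of the narrower regions (153 genes), RNA was higher for 5 and lower for 94 (3.27% and 61.4%), with a median log2 fold change of -1.05. Over all 6533 tested hosts, 891 were higher (13.6%) and 1163 lower (17.8%), with a median of -0.07. Mef2c RNA was 206, 343 and 142 CPM in positive and 939, 1249 and 954 CPM in negative vehicle libraries (log2 fold change -2.18 ± 0.28, edgeR adjusted p = 0.00014). Mapt (-1.56 ± 0.18), Taok3 (-0.92 ± 0.23) and Celf2 (-0.51 ± 0.15) were also lower, and Lhx2 (1.65 ± 0.17), Pou2f1 (1.44 ± 0.19), Tcf4 (1.01 ± 0.15) and Nfix (0.99 ± 0.17) higher (edgeR, each adjusted p under 0.05). Bcl11a did not follow its region. Its RNA was 386, 436 and 507 CPM in positive and 464, 546 and 468 CPM in negative vehicle libraries (-0.15 ± 0.15, edgeR adjusted p = 0.53), with overlapping groups.

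Across 2173 regions with a single tested host (1634 genes), width and RNA differences had a Pearson correlation of 0.373 and a Spearman correlation of 0.411. This is a description across regions, which are not independent: several share a host, all share the same libraries, and the kit does not keep the strand, so RNA of overlapping genes is counted together. Among these regions, 68 of the 129 hosts of wider regions were higher by RNA, 92 of the 150 hosts of narrower regions lower, and 190 and 304 of the 1474 hosts of regions that did not pass were higher and lower.

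**Figure D4:**
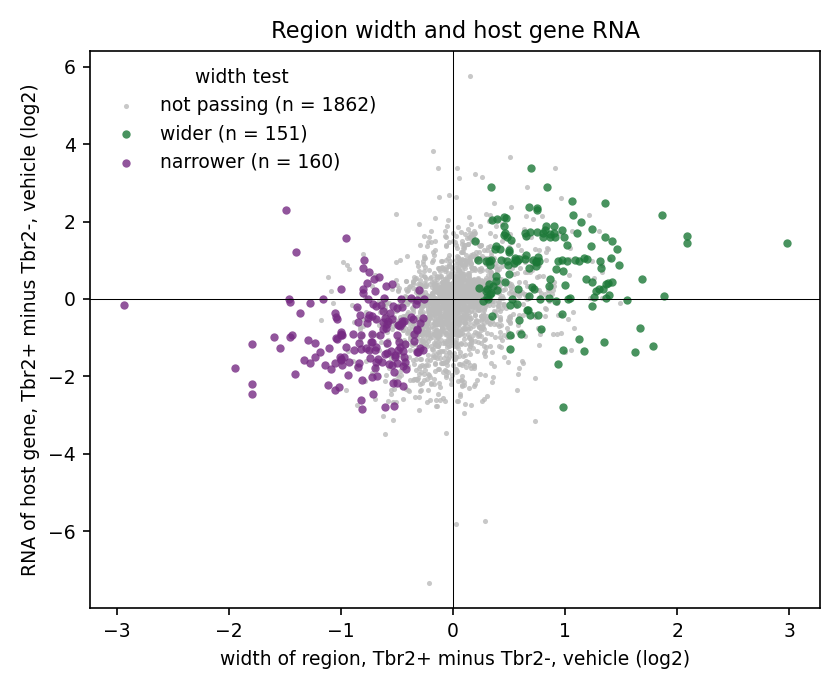
Difference in width between Tbr2-positive and Tbr2-negative vehicle libraries (log2 of covered bases, horizontal axis) against the difference in host RNA (log2 fold change, vertical axis) for 2173 recurrent gene-body regions with 1 tested host. Colours give the limma call on width (151 wider, 160 narrower, 1862 not passing). Narrower regions lie mostly below 0 in RNA.

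After TSA the Tbr2-positive libraries had fewer and narrower gene-body regions, and the Tbr2-negative libraries differed from their vehicle group by less than their spread. In positive nuclei 4910, 6001, 4735 and 4223 regions had a peak after TSA, 4967 ± 748 against 11530 ± 908 in vehicle, 0.431 times as many (difference -6562.75). The groups did not overlap, and the exact permutation p of 0.0571 is the smallest that 3 against 4 libraries allow (adjusted over 12 tests 0.098). In negative nuclei there were 11083, 12139, 11531 and 7753 regions after TSA, 10626.5 ± 1964 against 11776 ± 1227 (difference -1149.5, exact permutation p = 0.429), and the groups overlapped. Gene-end regions differed less in positive nuclei, where the log2 ratio of gene-body to gene-end regions went from -0.54 ± 0.09 to -1.54 ± 0.19 (exact p = 0.0571). In negative nuclei it was -0.55 ± 0.12 and -0.68 ± 0.24 (exact p = 0.457). With equal peak numbers the ratio differed after TSA by only -0.161 in positive (exact p = 0.0571) and -0.168 in negative nuclei (exact p = 0.171). With all peaks, the difference between the TSA effects was -5413 regions (exact permutation of the fractions within each treatment, p = 0.0278, adjusted over 9 tests 0.0312) and -0.87 for the log2 ratio (p = 0.0131, adjusted 0.0241). These p-values assume no difference between fractions in either treatment, so they do not test the difference of TSA effects alone.

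The number of peaks and the depth of the input moved with this result. The positive TSA libraries had 31823 to 40053 peaks of any kind and the positive vehicle libraries 61487 to 82164. Peaks were called against 1 input library per group, with the larger library scaled down to the smaller, and the positive TSA input had 20118388 tags against 30061311, 28520910 and 25947550 in the other groups. ChIP depth did not follow this order, with 22225481 to 30267202 tags in the positive TSA libraries and 27601349 to 29490943 in the positive vehicle ones. The negative TSA libraries had 15173175 to 23073573 tags. Their shallowest, library 4, had 7753 gene-body regions, the fewest of the negative libraries but more than any positive TSA library. Since there was 1 input per group, TSA and input depth cannot be told apart in these lists. With 31823 strongest peaks per library, positive nuclei had 4454 ± 96.9 gene-body regions in vehicle and 3901 ± 121 after TSA (difference -553, exact p = 0.0571, no overlap). Negative nuclei had 4521.5 ± 147 and 3955 ± 671 (difference -566.5, exact p = 0.171). The difference in negative nuclei rested in part on Tbr2-negative TSA library 2, which had 3026 regions against 3903 to 4477 in the other 3. Without that library it was -260.5 (exact permutation p = 0.343), while in positive nuclei leaving out any 1 library gave -582 to -461.5. Whether the TSA differences of the fractions differ at equal peak number was not tested.

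**Figure D5:**
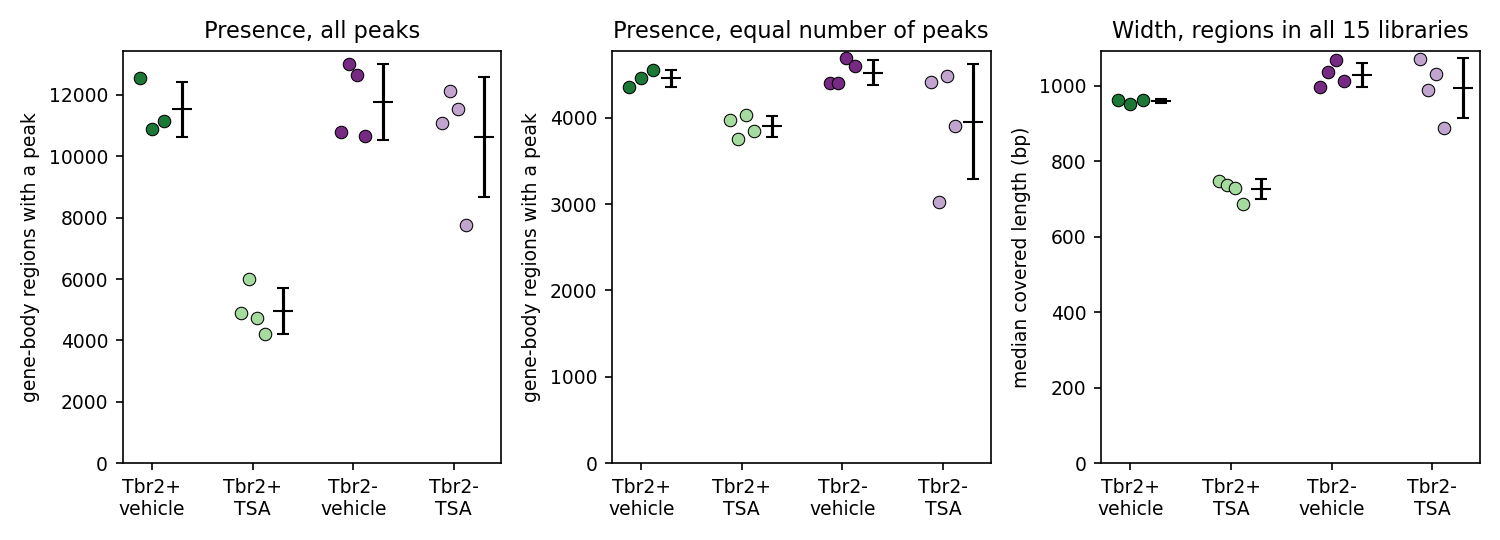
Gene-body regions with a peak per library with all deposited peaks, the same with the 31823 strongest peaks per library, and the median width (bp) of the 2312 recurrent regions. Points are libraries by group, with the mean and SD. The Tbr2-positive TSA libraries lie at 4223 to 6001 regions, below all others, in the first panel, while the groups come close together in the second.

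The lower presence after TSA was more marked in regions without a start, counted as above. In the positive fraction, 87.2 ± 1.8% of regions holding a RefSeq start had a peak in vehicle and 75.6 ± 0.9% after TSA (SD, n = 3 and 4). Of regions without a start, 49.5 ± 4.4% and 18.4 ± 3.6% had one. In the negative fraction the shares were 89.9 ± 1.4% and 87.4 ± 3.2% with a start, and 50.6 ± 5.9% and 45.2 ± 9.3% without. Of the 1438 regions with a start, 949 had a peak in all 15 libraries and so could show no loss. Regions with a start were also longer (median 1379.5 against 498 bp). This comparison was not made at equal peak numbers.

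In positive nuclei 1200 gene-body regions (5.43%; 4.56% over all regions) had a peak in every vehicle and no TSA library, and 2 (0.00885% over all regions) the reverse. In negative nuclei the counts were 92 (0.299% over all regions) and 41 (0.14%). With equal peak numbers they were 84 (0.891%) and 9 (0.129%) in positive, and 36 (0.367%) and 2 (0.034%) in negative nuclei. Tested per region with fraction as a stratum, none was called by TSA (exact test, smallest adjusted p = 0.602, 0.0% called). This test reaches its smallest p only when both fractions change alike. It therefore cannot decide on regions that lost their peaks in positive nuclei alone. At an unadjusted p under 0.05 there were 33 with more and 1665 with fewer peaks after TSA (0.108% and 6.07% over all regions). Requiring 50% coverage also gave 0 calls. Without having passed, Atg7, Glrb, Slc26a9, Pfkp and Dynlt1f each had a region with a peak in all 7 vehicle and no TSA library. Dynlt1f belongs to a family of near-identical copies, so its peaks are uncertain. Its region also lies just beyond the 2 kb limit, at 2015 bp from a gene end. The autophagy gene Atg7 (chr6:114692312-114692957) covered 439, 191 and 547 bp in positive and 220, 317, 145 and 365 bp in negative vehicle libraries. A region in the meiosis gene Mei1 (chr15:82106707-82107249) was the reverse, with no peak in vehicle and 223, 442, 208 and 151 bp in positive and 154, 170, 250 and 459 bp in negative TSA libraries. Rbm33, Grk5, Apba2 and Rab28 came next in that direction, each with a peak in some TSA libraries of both fractions and in no vehicle library.

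The recurrent regions were also shorter after TSA in positive nuclei. Their median covered length was 962, 952 and 962.5 bp in positive vehicle and 748.5, 736, 730 and 687 bp in positive TSA libraries, with no overlap (difference -233, exact permutation p = 0.0571, the smallest possible). In negative nuclei the medians were 995, 1036, 1067.5 and 1013.5 bp in vehicle and 1070, 989, 1031 and 887 bp after TSA (difference -33.8, exact p = 0.514). The difference of the TSA effects on this length did not pass (-199.7 bp, exact permutation p = 0.0759). After centring on the library median, which removes this common shortening, 15 gene-body regions were wider and 55 narrower after TSA in positive nuclei (limma; 0.811% and 1.6% over all regions). Without centring the counts were 0 and 633. The total of 70 fell to 34, 26 and 27 when positive vehicle library 1, 2 or 3 was left out, and to 7 with equal peak numbers.

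Among the named narrower regions, P4ha2, a collagen prolyl hydroxylase gene (chr11:54113044-54113847), covered 540, 641 and 522 bp in positive vehicle and 148, 163, 163 and 166 bp in positive TSA libraries (log2 difference -1.53 ± 0.22, limma adjusted p = 0.0019). Map1b, a microtubule-associated protein of growing axons (chr13:99443120-99448228), covered 2763, 2404 and 3673 bp against 976, 470, 856 and 789 bp (-1.67 ± 0.24, adjusted p = 0.0019). Npas3, a neuronal helix-loop-helix factor (chr12:54067752-54068689), went from 610 ± 165 to 182 ± 17.98 bp (-1.43 ± 0.21, adjusted p = 0.002). The fragment length in the file headers was 148, 150, 148 and 141 bp in the positive TSA libraries. P4ha2, and less closely Npas3, lay near 1 fragment there, so their log2 differences are near a floor. Fdft1, the squalene synthase gene (chr14:63175195-63178025), went from 1606 ± 133 to 760 ± 59.5 bp (-0.79 ± 0.12, adjusted p = 0.002). Wider relative to the library median were regions in Zbtb20, a zinc-finger repressor (chr16:43501911-43512082; 9405 ± 181 and 9405 ± 152 bp, log2 difference 0.29 ± 0.05, limma adjusted p = 0.006), and Trim2 (chr3:84256720-84261016; 3691 ± 126 and 3952 ± 258 bp, 0.39 ± 0.08, adjusted p = 0.016). The bases of Zbtb20 did not grow, so its call rests on the centring. Regions in Nfix (0.21 ± 0.04) and Tcf4 (0.24 ± 0.05) were also called wider, with fewer bases after TSA (14501 ± 371 against 15376 ± 491 bp, and 12183 ± 674 against 12627 ± 66.3 bp), and without centring their differences were -0.0844 and -0.0532.

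In negative nuclei a single gene-body region passed (limma; 0.0% wider and 0.0176% narrower over all regions), in Baz1a, a subunit of chromatin-remodelling complexes (chr12:54984303-54986858). It covered 2087, 2335, 2244 and 2151 bp in vehicle and 1655, 1541, 1491 and 1388 bp after TSA (-0.50 ± 0.06, limma adjusted p = 0.0054). In positive nuclei it covered 2100 ± 50.6 and 1924 ± 127 bp, and the difference of the TSA effects passed (0.66 ± 0.09, adjusted p = 0.0081). The count in negative nuclei was 0 without negative vehicle library 2 or 4, 2 without positive TSA library 1 or negative TSA library 2, and 3 without negative TSA library 1 or 3. Over the difference of the TSA effects, 1 gene-body region was called wider and 3 narrower (0.0294% and 0.0941% over all regions), in Baz1a and in Pakap, Fdft1 and P4ha2. Without centring the counts were 0 and 86. That total of 4 was 2 without negative vehicle library 1 or 4 or negative TSA library 3, 8 without positive TSA library 4 and 17 without positive TSA library 2.

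Between the fractions after TSA, region numbers differed by -5659 (exact permutation p = 0.0286, the smallest for 4 against 4; adjusted over 12 tests 0.098) with all peaks and by -54 (exact p = 0.943) with equal peak numbers. Regions with a peak in all TSA libraries of 1 fraction and none of the other numbered 23 for positive (0.0868% over all regions) and 778 for negative nuclei (3.24%), and with equal peak numbers 108 (0.8%) and 115 (1.36%). By width, 265 were wider and 430 narrower in positive nuclei (limma; 14.8% and 12.6% over all regions). Without centring on the library median the counts were 57 and 1064, so the balance of directions rests on the centring. Bcl11a covered 391, 696, 374 and 141 bp in positive and 13013, 13010, 13462 and 12037 bp in negative TSA libraries (-4.87 ± 0.29, limma adjusted p = 3.7e-09). The 141 bp equals the fragment length in the file header of that library. Marchf10 (chr11:105362833-105365261) covered 477 ± 41.4 against 2195 ± 137 bp (-1.86 ± 0.11, adjusted p = 5.3e-09). The Marchf10 region lies 2035 bp from a protein-coding gene end, just beyond the 2 kb limit.

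Few host RNAs were called after TSA, and the counts depended on the tool and on single libraries. In positive nuclei no tested host was called (edgeR; 0.0% of all genes higher and lower), with 1082 hosts at an unadjusted p under 0.05. DESeq2 called 348 and edgeR without a low-count filter 121. Shares over all genes are not given for the unadjusted, DESeq2 and unfiltered counts. They do not show whether hosts differ from other genes. Leaving out positive TSA library 2 gave 12 and positive vehicle library 3 gave 1. The 957 tested hosts of the 1200 regions absent from the positive TSA libraries had a median RNA log2 fold change of -0.05, against -0.04 over all hosts. In negative nuclei 22 hosts were higher and 25 lower after TSA (edgeR; 0.337% and 0.383% of hosts, against 0.817% and 0.359% of all genes). This total of 47 was 0 without positive vehicle library 2, negative vehicle library 1 or 3, or either negative TSA library. It was 78, 112 and 182 without positive vehicle library 1, positive TSA library 1 or negative vehicle library 2.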

How the data were processed

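H3K9ac ChIP (Millipore 07-352 antibody, NEBNext Ultra) and RNA (TruSeq RNA v2, not stranded) were sequenced, per the labels. The authors called peaks in each library (MACS 2.1.0.20140616) against 1 input per group, duplicates removed, q threshold 0.1, per the file headers, and SAMtools and mm10 are named in the submitters' processing notes. The deposited peak lists give start and end, from which lengths in bp were taken, and a −log10 q, used only to rank or filter peaks within a library. The pileup signal and the fold-enrichment ratio in the deposited lists were not used, since they come from separate calls. For RNA the authors deposited raw counts for Ensembl genes. No source used here names the aligner or the counting tool. RNA totals were 18567111 to 26282652 counts, and ChIP depth 15173175 to 30267202 tags with 31823 to 82164 peaks per library. The 4 input libraries were not analysed here.

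Peaks were merged with Python 3.11.15, and genes came from RefSeq GRCm38.p6 (21887 protein-coding genes). Exon and intron positions were not used here. Sequences come from the RefSeq tables of that build. Of 48709 genes 48349 had a symbol and 20078 were tested with edgeR 4.0.16 (filterByExpr, TMM, quasi-likelihood F test of all 10 libraries, SE as the absolute log2 fold change over the square root of F). CPM are relative to TMM-scaled totals. Width was tested with limma 3.58.1 (trend, robust) on all 15 libraries, and p-values were adjusted by Benjamini-Hochberg over all regions or genes tested. Library values were compared by exact permutation, two-sided (12 tests), and 9 stratified permutation tests were added to the plan afterwards. Scripts were tested on simulated data.

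The members, lists and rules were chosen with earlier results of these data known. Named regions and hosts were the 5 with the smallest p per effect and direction of the presence test where none passed, the 10 hosts with the most regions, the 6 widest recurrent regions, up to 4 regions per width contrast and direction, up to 3 hosts per gene list, and Eomes, Pax6, Sox2, Tbr1, Hdac4, Hdac9, Bcl11b, Nfia, Nfib, Tcf4 and Auts2; some genes these rules select are not reported here. The 20 gene lists cover cell types, axon guidance, adhesion, channels, cytoskeleton, deacetylases, chromatin regulators, signalling, the cell cycle and a muscle and liver control. Alternatives were peaks with −log10 q of at least 2, equal peak numbers, 50% coverage, 5 libraries, 5 kb, sequencing lane as named in the file names, replicate number as a block, other scalings and filters, DESeq2 1.42.0 and leaving out each library.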

Additional observations from a re-analysis of the deposited data

Results flagged for a closer look

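The difference between the TSA effects in the Tbr2-positive and Tbr2-negative fractions was flagged for 2 library-level values. The flag rests on a permutation of the fractions, which does not test this difference alone. It was -5413.25 gene-body regions per library and -0.865 for the log2 ratio of gene-body to gene-end regions. Positive TSA libraries also had the fewest peaks and the shallowest input, and at equal peak numbers the TSA differences were -553 (positive) and -566.5 regions (negative, -260.5 without Tbr2-negative TSA library 2). For the log2 ratio they were -0.161 (positive) and -0.168 (negative) at equal peak numbers.

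By width, the difference of the TSA effects passed in 4 gene-body regions (limma), with log2 values of 0.66 in Baz1a, -1.59 in Pakap, -0.96 in Fdft1 and -1.62 in P4ha2. Pakap covered 792 ± 43.4 bp in positive vehicle, 366 ± 81.4 bp in positive TSA, 861 ± 50.9 bp in negative vehicle and 1396 ± 86.7 bp in negative TSA libraries, opposite directions in the fractions.

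In 6 named regions 1 library of a group of 4 lay far from the others in covered bases, which chance gives in about 1 of 20 groups. In the positive TSA group a single library had a peak in the regions of Apba2 (257 bp) and Rab28 (150 bp), and in P4ha2 1 library was at 148 bp with the others at 163 to 166 bp. The 148 bp equals the fragment length in the file header of that library. In the negative vehicle group 1 library was at 11541 bp in a Tcf4 region and 1 at 9220 bp in the Sox5 region. In the negative TSA group 1 library was at 2399 bp in Marchf10.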

How the results depend on the processing

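The fewer and narrower regions of the Tbr2-positive TSA libraries kept their direction under every alternative run. With equal peak numbers the log2 ratio between fractions after TSA was 0.0507 instead of -0.85, and the width counts (chosen after seeing the data) were 7 for TSA in positive nuclei and 1 for the difference of TSA effects. Between fractions in vehicle, 0 presence calls became 363 with 50% coverage, region number differed by 670 within lane 1, and the log2 ratio by -0.12 within lane 2. The TSA difference in median width in negative nuclei was 54.5 bp within lane 1. Without centring, width counts were 633 for TSA in positive nuclei, 1121 between fractions after TSA and 86 for the difference, and the Nfix and Tcf4 regions turned to -0.0844 and -0.0532. With lane as a term the counts were 41 (TSA, positive) and 2 (difference), and with −log10 q of at least 2 the count for TSA in negative nuclei was 2. Host RNA calls for TSA were 121 and 226 (positive and negative nuclei) without a filter and 348 and 554 with DESeq2, with no share over all genes given beside them. The cause of these shifts was not tested.

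Replicate numbers did not pair the libraries: same-numbered libraries correlated at -0.03 to 0.099 in RNA (7 pairs) and -0.012 to 0.05 in width (14 pairs). With the replicate block the vehicle log2 ratio between fractions was -0.0231, the width count for TSA in positive nuclei 43, and host RNA calls for TSA 3 (positive) and 2 (negative).

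Leaving out 1 library gave ranges of -962 to 214 regions and -0.0669 to 0.0616 (log2 ratio) between fractions in vehicle. With equal peak numbers (added after seeing the data) the TSA differences were -582 to -461.5 regions in positive and -723 to -260.5 in negative nuclei. Width counts were 26 to 99 (TSA, positive), 0 to 3 (TSA, negative), 207 to 359 (fractions, vehicle) and 2 to 17 (difference). Host RNA calls for TSA were 0 to 12 (positive) and 0 to 182 (negative). Peaks were called with depths that differ, so an absent peak does not show absent acetylation.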

Other observations

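Hairpins of 22 annotated microRNAs lay inside gene-body regions. The regions around Mir149 in Gpc1, Mir330 in Eml2 and Mir1904 in Pde4d had a peak in all 15 libraries. Mir128-2, a microRNA abundant in brain, lies in Arpp21, and its region had a peak in 2 of 3 positive vehicle, 1 of 4 positive TSA, 4 of 4 negative vehicle and 4 of 4 negative TSA libraries. The region at Mir135b in Lemd1 had a peak in 1, 0, 2 and 4 libraries of these groups. These hairpins were not tested one by one.

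Rbfox3, the gene of the neuronal marker NeuN, had 31 regions, with 9, 13 and 11 in positive and 13, 23, 18 and 18 in negative vehicle libraries, while its RNA was higher in positive nuclei (log2 fold change 0.92 ± 0.18, edgeR adjusted p = 0.0024).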
